A study of Mus musculus with 56 samples.

Results

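The RNA of 8 genes for fatty acid elongases and desaturases was followed in livers of hypothyroid and hyperthyroid mice: Elovl1, Elovl2, Elovl3, Elovl5, Fads1, Fads2, Fads3 and Scd2. They were taken by name from the 23813 genes of the deposited RNA table, with the first listed transcript for each gene. No cutoff on a measured value was used in the choice, but the members were chosen with earlier results of these data known. All 8 were found, and all 8 passed the filter on low values in every comparison.

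Male mice in 3 groups of 4 were compared. The hypothyroid WT group was fed chow low in iodine that held 0.15% propylthiouracil (PTU), an inhibitor of thyroid hormone synthesis, for 16 days and given vehicle on the last 4 to 6 days. Hyperthyroid WT mice received the same PTU diet and were injected with 5 μg of the thyroid hormone T3 on those last days. Hypothyroid L-NCOR1ΔID mice received PTU without T3 and were on a mixed C57BL/6;129S background. They carried, specifically in liver, a form of the nuclear receptor corepressor NCOR1 that cannot bind the thyroid hormone receptor (TR). All 12 mice were therefore on PTU, and no euthyroid group and no T3-treated L-NCOR1ΔID mice were analysed here. The promoter that drives the deletion in the mutant and the strain of the WT mice in the RNA experiment are not given in the sources used here. Over all mice of the paper, hypothyroid L-NCOR1ΔID mice were younger on average than hypothyroid WT mice. Ages of the 12 mice compared here are not given, so age and genotype cannot be told apart.

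Elongases of the ELOVL family carry out the first, rate-limiting step of a cycle in the endoplasmic reticulum that lengthens a fatty acyl-CoA by a pair of carbons. Desaturases insert double bonds: FADS1 and FADS2 work at the front end of polyunsaturated fatty acids, and the stearoyl-CoA desaturases make monounsaturated fatty acids. In liver, FADS2, ELOVL5, FADS1 and ELOVL2 act in turn to convert dietary linoleic and alpha-linolenic acid into arachidonic acid and the precursors of docosahexaenoic acid, while ELOVL1 and ELOVL3 act on saturated and monounsaturated very long chains.

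Expression is given as RPKM, reads per kilobase of transcript scaled to the number of reads in the library, which can be compared between genes because it is per length. Depth was estimated from the steps between the lowest values at 21300000 to 42600000 reads per library (67.3% of low values lay within 0.06 of a whole read), and 2.13 to 4.26 reads on each kilobase then give 0.1 RPKM. The lowest estimated number of reads on a member in any library was 100 for Scd2, 120 for Fads3, 154 for Elovl3 and 650 or more for each other member. Ncor1 was measured at 14.1 to 18.5 RPKM in the 8 WT livers and at 12.1 to 13.9 RPKM in the 4 L-NCOR1ΔID livers, which does not check the genotype, because these values cover the transcript as a whole and not the deleted exons. Dio1, a classical T3-induced gene named here outside the rule for named genes and after its values were seen, was at 459 to 641 RPKM in hyperthyroid WT livers. Among hypothyroid livers it was at 57.7 RPKM in WT replicate 3 and at 0.567 to 20.9 RPKM in the other 7, so that WT replicate 3 stood apart, and results that rest on this library are given with and without it.

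Elovl3 had the largest log2 fold change of the 8 members after T3. Its level was 5.29, 8.55, 23.9 and 5.25 RPKM in hypothyroid WT replicates 1 to 4, and 85.2, 76.3, 112.5 and 93.4 RPKM in the hyperthyroid WT replicates. Every hyperthyroid liver was above every hypothyroid one, and the hypothyroid value of 23.9 RPKM came from replicate 3, the library with the high Dio1. L-NCOR1ΔID replicate 1 had a similar Elovl3 value, 23.8 RPKM, with Dio1 at 0.567 RPKM, and a link between these genes was not tested. The log2 fold change was 3.37 with an SE of 0.426 (a 10.3-fold difference, 95% interval of the log2 value 2.41 to 4.33), with an adjusted p of 0.00029 in limma fitted on log2(RPKM + 0.1) over all genes tested. Without hypothyroid WT replicate 3 the log2 fold change was 3.85, with an adjusted p of 1.2e-05. Elovl3 made up 1.05% to 4.81% of the summed RPKM of the 8 members in hypothyroid WT livers and 9.20% to 14.1% in hyperthyroid WT livers.

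Scd2, a stearoyl-CoA desaturase best known from brain and skin, was expressed at a low level and was also higher after T3. Hypothyroid WT livers had 0.849, 0.590, 0.754 and 0.795 RPKM and hyperthyroid WT livers 2.01, 1.31, 2.08 and 2.95 RPKM. The groups did not overlap, and the log2 fold change was 1.33 ± 0.225 (SE; adjusted p = 0.0014, limma). With the 4 L-NCOR1ΔID libraries in the same fit, which share 1 estimate of the spread, the adjusted p was 0.034.

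Fads3, the least studied of the FADS genes and a desaturase of sphingoid bases, was the third member past the threshold. Its 4 hypothyroid WT values were 1.18, 1.84, 1.34 and 1.19 RPKM, and the hyperthyroid values were 2.00, 2.43, 3.28 and 2.92 RPKM, again without overlap. The log2 fold change was 0.89 ± 0.189 (SE; adjusted p = 0.0044, limma). This call was close to the threshold: with libraries scaled to equal medians of gene ratios the log2 fold change was 0.66 and the adjusted p 0.014. The call was also lost when any 1 of 5 libraries was left out (hypothyroid WT replicates 1, 3 and 4 and hyperthyroid WT replicates 3 and 4), where the adjusted p was 0.012 to 0.015.

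In all, 3 of the 8 members were higher and 0 lower after T3 at an adjusted p under 0.01, beside 24.5% of 13941 genes called higher and 7.71% called lower. Elovl3 and Scd2 also exceeded a log2 fold change of 1, which 8.28% of genes did in that direction. Most genes moved up in this comparison on the deposited scale: the median log2 fold change was 0.23 over all genes and 0.48 over the members, and 69.9% of all genes and 8 of 8 members had a value above 0. After scaling to equal medians of gene ratios the median of all genes was 0.01, 12.4% of genes were called higher and 13.9% lower, and of the members Elovl3 and Scd2 were called, both higher.

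**Figure D1:**
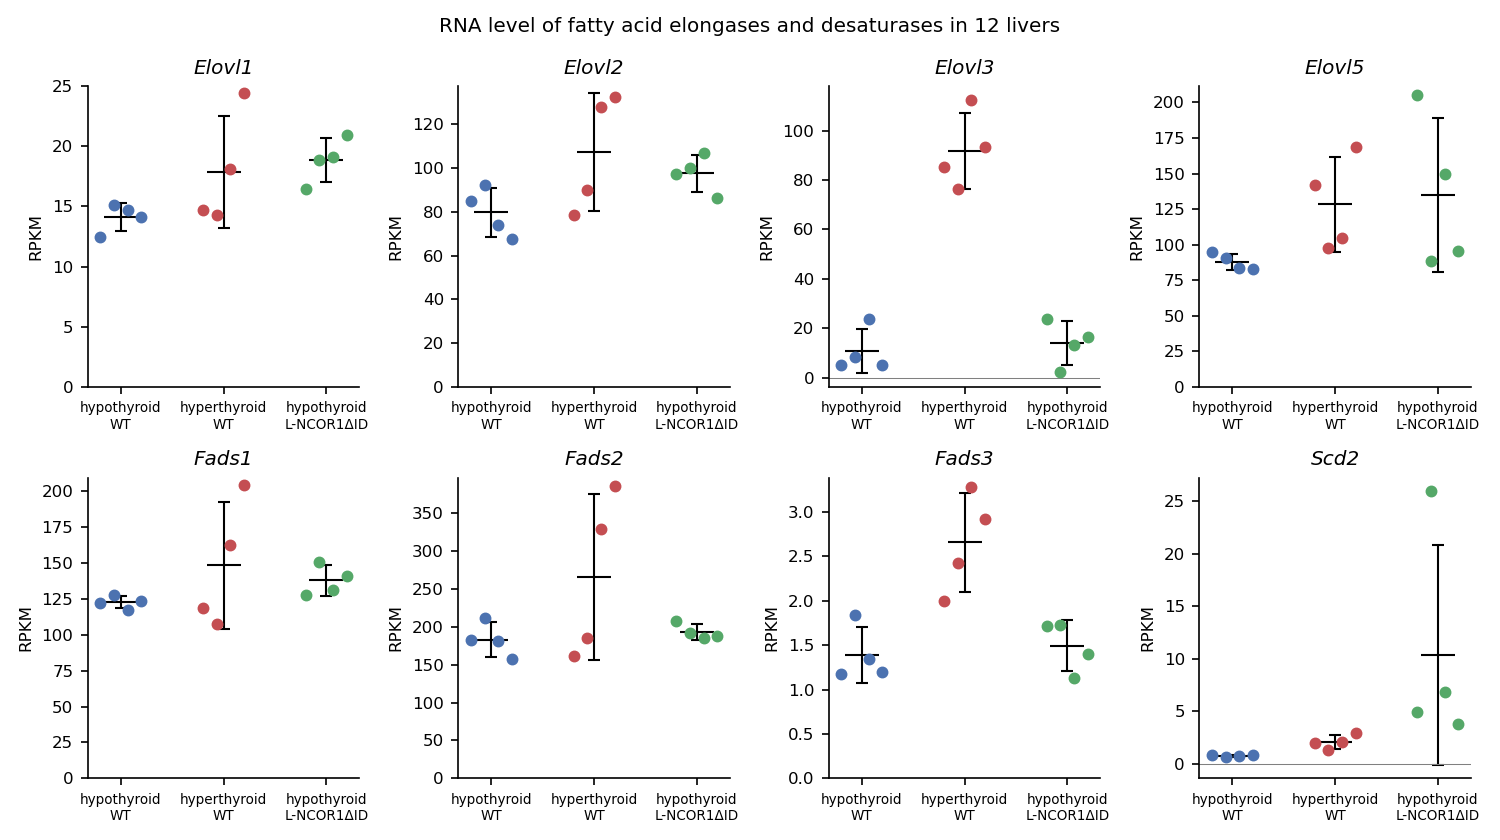
RNA level (RPKM, vertical axis, 1 scale per gene) of the 8 members in each of 12 livers. Points are livers in replicate order from left to right, the horizontal mark is the group mean and the bars are 1 SD (n = 4); hyperthyroid WT livers lie apart from hypothyroid WT livers for Elovl3 (76.3 to 112.5 against 5.25 to 23.9 RPKM), Scd2, Fads3 and Elovl5, and the highest Scd2 value, 26.0 RPKM, is L-NCOR1ΔID replicate 2.

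None of the 4 genes of the polyunsaturated pathway (Fads2, Elovl5, Fads1 and Elovl2) passed the threshold for T3, and in hypothyroid WT livers each of them was above the other 4 members. Elovl5, which elongates 18- and 20-carbon polyunsaturated acids, came nearest. It was measured at 94.7, 90.2, 83.4 and 82.9 RPKM in hypothyroid WT livers and at 142.3, 97.4, 104.8 and 168.8 RPKM in hyperthyroid WT livers. The groups did not overlap, as was the case for 35.8% of all genes in this direction, and the log2 fold change of 0.51 ± 0.164 (SE) had an adjusted p of 0.028. At an adjusted p under 0.05, 4 of 8 members were thus higher, beside 37.6% of all genes. Leaving out each library in turn gave 0.37 to 0.63, with adjusted p from 0.0097 to 0.067.

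Fads2, the delta-6 desaturase that starts the pathway, was the most abundant member in every group. It was at 182.2, 211.8, 181.4 and 156.8 RPKM in hypothyroid WT livers and at 161.8, 185.6, 329.4 and 385.4 RPKM in hyperthyroid WT livers. Hyperthyroid replicates 1 and 2 lay inside the hypothyroid range and replicates 3 and 4 above it. The log2 fold change was 0.45, with a 95% interval from -0.15 to 1.04 (adjusted p = 0.18).

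Fads1, the delta-5 desaturase, was measured in hypothyroid WT livers at 121.9, 128.1, 117.6 and 123.6 RPKM (SD 4.36). After T3 it was at 119.0, 107.6, 162.3 and 204.6 RPKM, so that the hyperthyroid livers lay on both sides of the hypothyroid range. Its log2 fold change was 0.23 with a 95% interval from -0.18 to 0.64 (adjusted p = 0.32), and it was -0.01 after scaling. Elovl2, the elongase of 20- and 22-carbon polyunsaturated acids, was at 85.1, 92.4, 73.8 and 67.7 RPKM without T3 and at 78.6, 89.9, 127.7 and 132.6 RPKM with it. These groups overlapped too, and the log2 fold change of 0.40 had an adjusted p of 0.090. Elovl1, which elongates saturated and monounsaturated very long chains for sphingolipids, was at 12.4, 15.1, 14.7 and 14.1 RPKM and at 14.7, 14.3, 18.1 and 24.4 RPKM, with a log2 fold change of 0.31 (adjusted p = 0.14).

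Every member except Elovl5 was higher in hyperthyroid replicates 3 and 4 than in replicates 1 and 2. The ratio of Fads2 to Fads1 ranged from 1.27 to 1.65 in hypothyroid WT livers and from 1.36 to 2.03 in hyperthyroid WT livers, and that of Elovl5 to Elovl2 from 0.977 to 1.22 and from 0.821 to 1.81.

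The mutant lacks the contact between NCOR1 and TR, but the paper also reports less of the histone deacetylase HDAC3 at sites not bound by TR. It proposes that the deleted domains may serve other regulators too, so these livers do not test the contact with TR alone. In hypothyroid L-NCOR1ΔID livers 0 of the 8 members passed an adjusted p of 0.01 in limma, beside 0.725% of 13790 genes called higher and 0.544% called lower. At an unadjusted p under 0.05, 3 members were higher (Elovl1, Scd2 and Elovl2), beside 12.8% of all genes, and 0 were lower. At an adjusted p under 0.05, 2 members were higher, Scd2 and Elovl1, beside 2.49% of all genes, and 0 were lower, beside 1.86%.

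Scd2 had the largest log2 fold change of the members in this comparison, although it did not pass the threshold. The 4 L-NCOR1ΔID livers had 4.95, 26.0, 6.82 and 3.76 RPKM, all above the highest hypothyroid WT value of 0.849 RPKM. The log2 fold change was 3.19 ± 0.511 (SE; 95% interval 2.04 to 4.35, adjusted p = 0.011). Replicate 2 stood far above the other 3. Of 8 limma fits that each left out 1 library, 2 passed the threshold. Without replicate 2 the log2 fold change was 2.61 (adjusted p 0.0010), and without replicate 4 it was 3.53 (adjusted p 0.0075). Over the 8 fits the adjusted p ranged from 0.0010 to 0.042.

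Scd1, the main hepatic stearoyl-CoA desaturase and a relative of Scd2 that is not among the members, was at 977, 1046, 828 and 881 RPKM in hypothyroid WT livers and at 8000, 3745, 6006 and 4669 RPKM in L-NCOR1ΔID livers. All 4 mutant livers were above all 4 WT livers, with a log2 fold change of 2.53 (adjusted p = 0.00069, limma). Hyperthyroid WT livers had 654, 180, 181 and 720 RPKM of Scd1, a log2 fold change of -1.40 that did not pass the threshold (adjusted p = 0.031). Scd2 was thus called higher after T3 where Scd1 values were lower, and both genes had higher values in the mutant.

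The ratio of Scd1 to Scd2 was 1098 to 1773 in hypothyroid WT, 86.8 to 325 in hyperthyroid WT and 144 to 1615 in L-NCOR1ΔID livers. The value of 144 came from L-NCOR1ΔID replicate 2, where Scd1 was the lowest and Scd2 the highest of the 4. Of the stretches of 50 bases in the longest annotated Scd2 transcript, 145 (2.68%) also occur letter for letter in a Scd1 transcript. The paper states that its later analyses used uniquely aligned reads. How much Scd1 reads add to the Scd2 values was not tested.

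Elovl1 was at 16.5, 18.8, 19.1 and 20.9 RPKM in L-NCOR1ΔID livers, all above the 4 hypothyroid WT values of 12.4 to 15.1 RPKM. Of the 8 members 2, Elovl1 and Scd2, did not overlap with WT in this direction, as was the case for 7.78% of all genes. The log2 fold change of Elovl1 was small, 0.41 ± 0.094 (SE), with an adjusted p of 0.044. Elovl2 was at 97.2, 100.2, 106.8 and 86.3 RPKM, where replicate 4 lay inside the WT range, and had a log2 fold change of 0.30 (adjusted p = 0.17).

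Elovl3 was not shown to differ in the mutant. Its values were 23.8, 2.15, 13.2 and 16.6 RPKM, on both sides of the hypothyroid WT values, and the log2 fold change was 0.25 with a 95% interval from -1.44 to 1.94 (adjusted p = 0.89). The interval spans a difference in either direction, and the SDs of both hypothyroid groups were large (8.91 and 9.01 RPKM). Without L-NCOR1ΔID replicate 1 the sign turned (-0.15), and without hypothyroid WT replicate 3 the value was 0.73 (adjusted p = 0.65).

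The other 4 members were not called at either threshold. Elovl5 was at 205.3, 88.6, 149.6 and 95.8 RPKM in the mutant, with replicates 1, 3 and 4 above every WT liver and replicate 2 inside the WT range (log2 fold change 0.54, adjusted p = 0.25). Fads1 was at 127.6, 151.1, 131.6 and 141.3 RPKM, with a log2 fold change of 0.16 and a 95% interval from -0.003 to 0.33. Fads2 was at 207.4, 192.0, 184.5 and 187.2 RPKM, with 0.08 and an interval from -0.14 to 0.30. Fads3 was at 1.71, 1.73, 1.13 and 1.41 RPKM, with 0.10 and an interval from -0.31 to 0.52. For these last 3 genes the intervals leave out a doubling.

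**Figure D2:**
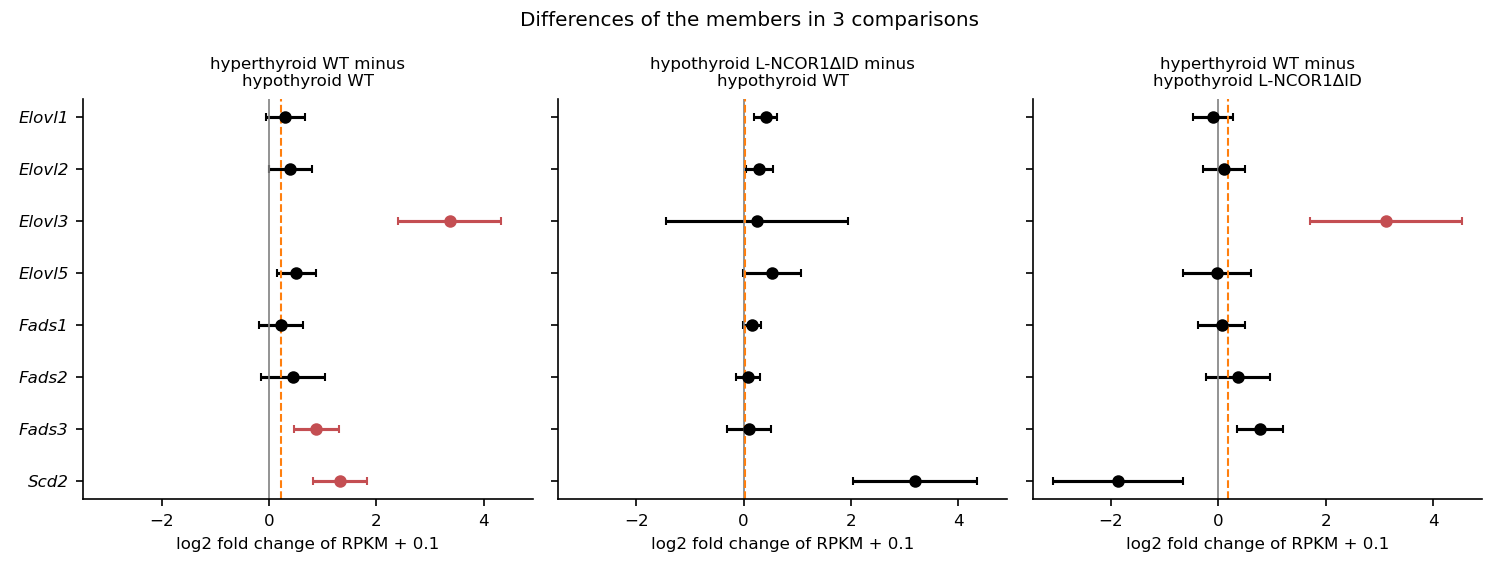
Log2 fold change of RPKM + 0.1 (horizontal axis) of the 8 members in 3 comparisons, with 95% intervals from limma (4 livers per group). Red marks an adjusted p under 0.01 and the dashed line is the median of all genes tested (0.23, 0.03 and 0.19 from left to right); Elovl3 is at 3.37 with T3 and at 0.25 in the mutant, and Scd2 at 1.33 and 3.19.

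Both comparisons above share the 4 hypothyroid WT livers, so hyperthyroid WT livers were also compared directly with hypothyroid L-NCOR1ΔID livers. These groups differ in both T3 treatment and genotype, which cannot be told apart in this comparison. Of the 8 members 1 was called, Elovl3, which was higher with T3 than in the mutant by a log2 fold change of 3.12 ± 0.626 (SE; adjusted p = 0.0049, limma), beside 15.5% of 14017 genes called higher and 5.70% called lower. The lowest hyperthyroid value (76.3 RPKM) exceeded the highest mutant value (23.8 RPKM). This call depended on which library was left out: it was kept in 3 of 8 fits that left out 1 library, and the adjusted p over the 8 fits was 0.00018 to 0.017. It was lost without any 1 of the 4 hyperthyroid WT replicates and without L-NCOR1ΔID replicate 3.

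Fads3 was higher in hyperthyroid WT than in L-NCOR1ΔID livers without overlap, with a log2 fold change of 0.78 (adjusted p = 0.011). Scd2 was lower in hyperthyroid WT than in the mutant, also without overlap, with a log2 fold change of -1.87 (adjusted p = 0.023). Neither passed 0.01. At an adjusted p under 0.05 the called members were Elovl3 and Fads3, higher (28.5% of all genes), and Scd2, lower (10.1%), and these 3 were also the members without overlap (28.7% of all genes higher and 9.57% lower). The other 5 members had values from -0.10 to 0.37 with adjusted p of 0.29 or more, and their groups overlapped. The median over the members was 0.08, beside 0.19 over all genes, and after scaling the members' median was -0.11, with 7.51% of genes called higher and 9.14% lower and Elovl3 still the 1 member called.

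The order of the levels was much the same in the 3 groups. In hypothyroid WT livers Fads2 led with a mean of 183.1 RPKM, followed by Fads1 (122.8), Elovl5 (87.8), Elovl2 (79.8), Elovl1 (14.1), Elovl3 (10.7), Fads3 (1.39) and Scd2 (0.747). Elovl5 and Elovl2 overlapped in this group, as did Elovl1 and Elovl3, and the other neighbours did not. With T3, Elovl3 (91.9 ± 15.4 RPKM, SD, n = 4) stood above Elovl1 (17.9 ± 4.67) and overlapped with Elovl2 (78.6 to 132.6 RPKM). In L-NCOR1ΔID livers Scd2 (10.4 ± 10.5) stood above Fads3 (1.13 to 1.73 RPKM), the reverse of their order in hypothyroid WT livers.

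The other enzymes of the pathway were read from lists of genes. Elovl6, the elongase of 16-carbon saturated acids, was at 44.1, 46.9, 30.7 and 43.1 RPKM in hypothyroid WT and at 45.1, 32.4, 34.5 and 37.5 RPKM in hyperthyroid WT livers (log2 fold change -0.13, adjusted p = 0.48). In L-NCOR1ΔID livers it was at 300.4, 59.9, 73.0 and 63.6 RPKM, all above WT, with replicate 1 far above the rest (log2 fold change 1.23, adjusted p = 0.18). That same liver also had the highest Elovl5 and the highest Scd1 of the mutant group.

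Of 7 tested genes among the other elongases and the enzymes that complete the elongation cycle, 1 rose with T3 and 0 fell. It was Hacd2, a 3-hydroxyacyl-CoA dehydratase of the third step, at 7.58 RPKM without and 16.6 RPKM with T3 on average (log2 fold change 1.12, adjusted p = 2.5e-05, limma). The ketoreductase Hsd17b12 (80.4 and 93.7 RPKM) and the enoyl reductase Tecr (124.1 and 134.9 RPKM) did not pass the test. In the mutant 0 of 7 were called at an adjusted p under 0.01 or 0.05.

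Among 9 tested other desaturases and electron donors, 2 rose and 4 fell with T3, and after scaling 0 rose and 5 fell. Cytochrome b5, an electron donor of SCD enzymes, fell in both its forms. Cyb5a fell from 1171 to 454 RPKM (log2 fold change -1.36, adjusted p = 1.8e-05) and the outer mitochondrial Cyb5b from 171.5 to 107.6 RPKM (-0.67, adjusted p = 0.00010). Fads6, a putative desaturase, fell from 49.5 to 34.2 RPKM (-0.53, adjusted p = 0.0036), and Degs1, which makes ceramide from dihydroceramide, was also called lower (-0.31). In the mutant 1 of 11 was called, Scd1, which was higher.

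Docosahexaenoic acid is finished in peroxisomes, and 2 of 9 genes of those steps rose and 4 fell with T3 (2 and 6 after scaling). The ABC transporters Abcd2 and Abcd3, which carry fatty acyl-CoA into peroxisomes, rose from 0.722 to 10.2 RPKM (log2 fold change 3.63) and from 118.9 to 347.5 RPKM (1.57). Scp2, a sterol carrier and thiolase, fell from 772 to 342 RPKM (-1.17, adjusted p = 4.6e-05). In the mutant 1 of 9 was called, Ehhadh, the peroxisomal bifunctional enzyme, which was higher at 276.7 against 86.3 RPKM (log2 fold change 1.64, adjusted p = 0.0014).

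**Figure D3:**
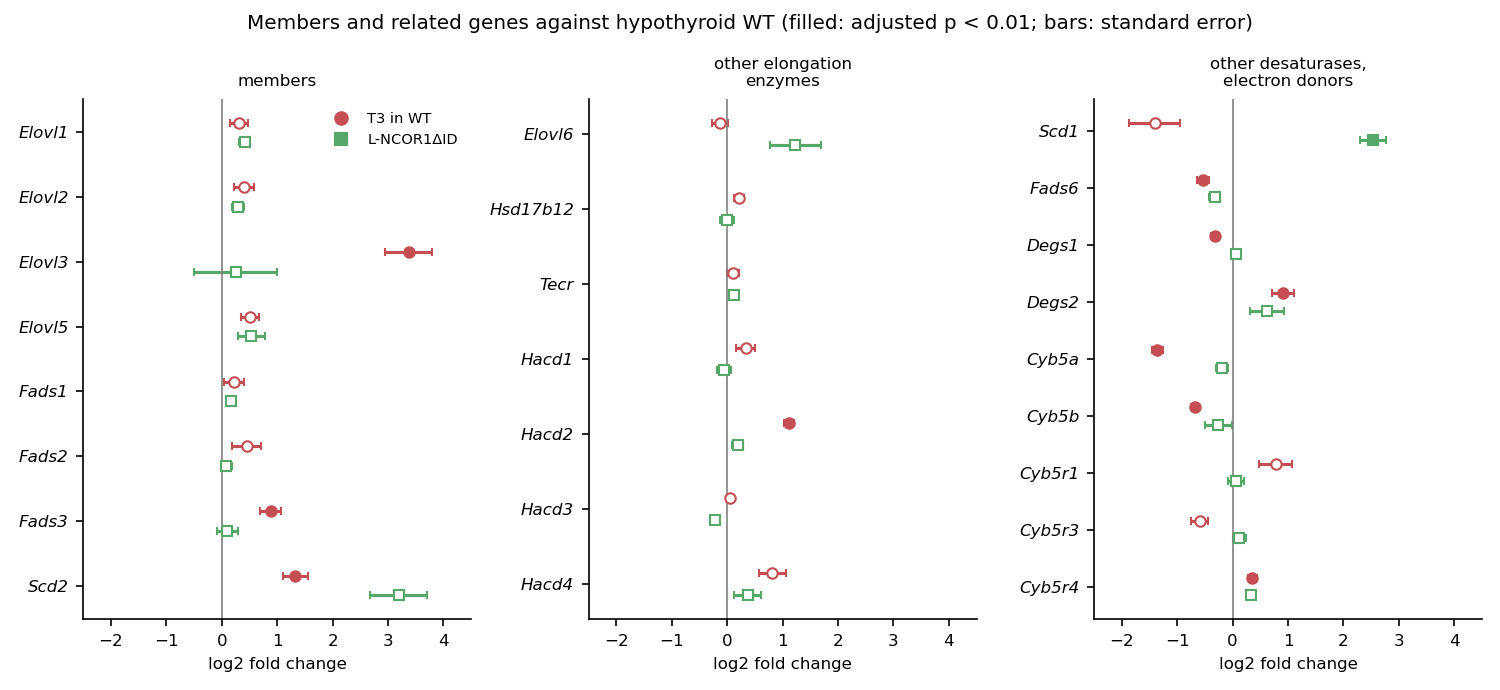
Log2 fold change (horizontal axis, RPKM + 0.1) of the members and of 2 lists of related genes tested in both comparisons, for T3 in WT (circles) and for L-NCOR1ΔID (squares), each against the same 4 hypothyroid WT livers. Bars are the standard error and filled symbols have an adjusted p under 0.01; Cyb5a (-1.36) and Cyb5b (-0.67) fell with T3, whereas Elovl3 (3.37) and Hacd2 (1.12) rose.

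Enzymes that activate or use the products gave mixed counts with T3. Of 7 acyl-CoA synthetases, 3 rose and 2 fell, with Acsl1, the main hepatic form, from 253.2 to 122.6 RPKM (log2 fold change -1.05, adjusted p = 0.00012) and Acsl4, which prefers arachidonic acid, from 16.2 to 24.2 RPKM (0.58, adjusted p = 0.0086). After scaling, 0 of these rose and 2 fell. Of 7 lysophospholipid acyltransferases, 0 rose and 2 fell, among them Lpcat3, which places polyunsaturated chains in phospholipids (-0.47, adjusted p = 0.0045). Of 7 genes of ceramide synthesis, 1 rose (Cers5, 0.62) and 1 fell (Cers6, -1.08), and after scaling 0 rose and 2 fell. In L-NCOR1ΔID livers 0 genes of these 3 lists were called in limma, and at an adjusted p under 0.05 Acsl5 and Lpcat3 were higher.

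Of 11 transcriptional regulators of fatty acid genes, 5 rose with T3 and 0 fell. Insig2, which retains SREBP precursors in the endoplasmic reticulum, rose from 44.4 to 158.4 RPKM (log2 fold change 1.81, adjusted p = 0.00014), Mlxipl, the carbohydrate-responsive factor ChREBP, from 79.5 to 171.1 RPKM (1.12, adjusted p = 0.00015), and Scap, the escort of SREBP, from 23.2 to 41.3 RPKM (0.84, adjusted p = 0.00074). After scaling these 3 were still called higher and Ppara was called lower. In the mutant 0 of 11 were called at either threshold.

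Elovl3 is known in mouse liver for a daily rhythm and for higher levels in males, so lists of clock genes and sex-biased genes were set beside it. With T3, 2 of 11 clock genes rose and 4 fell, such as Arntl (log2 fold change 2.01, adjusted p = 0.00052) and Per1 (-1.17, adjusted p = 3.9e-05). In the mutant 1 of 11 was called, Arntl (1.87, adjusted p = 0.0073), while Elovl3 was not called there. Of 8 male-biased genes 5 fell with T3 and 1 rose (7 and 1 after scaling), among them Cyp4a12a from 207.3 to 11.4 RPKM (-4.32), and of 8 female-biased genes 5 rose and 1 fell, with Cyp3a44 from 0.115 to 52.5 RPKM. Elovl3 thus rose in the comparison in which most listed male-biased genes fell. The hour at which livers were taken is not given in the sources used here, and the part of either list in the Elovl3 result was not tested.

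The samples were whole liver, in which fewer cells of a type and less RNA per cell cannot be told apart. Hepatocyte markers summed to 37982 to 49782 RPKM in hypothyroid WT, 20139 to 28573 RPKM in hyperthyroid WT and 32048 to 35789 RPKM in L-NCOR1ΔID livers, without overlap between the groups. These sums are mostly Alb, with means of 31804, 14325 and 22674 RPKM in the same order, and do not stand for the list. Of the 7 markers 1 was called higher and 2 lower after T3 (0 and 1 after scaling), and their median log2 fold change was 0.06. All 6 Kupffer cell and macrophage markers tested rose, from summed levels of 54.3 to 77.3 RPKM to 210.8 to 305.4 RPKM. So did 4 of 7 stellate cell markers (83.6 to 106.1 against 132.4 to 155.8 RPKM) and 2 of 6 endothelial markers. Of 5 lymphocyte and neutrophil markers 3 rose, Ptprc, S100a8 and S100a9, and the lymphocyte marker Cd3e was not called. After scaling these counts were 6 of 6, 2 of 7, 1 of 6 and 2 of 5. Of 5 cholangiocyte markers 1 rose and 1 fell (0 and 1 after scaling), and of 2 tested adipocyte markers 0 were called. Adipocyte markers stayed at 6.97 RPKM or less in every library, and no list had a marker at 0 in all libraries. In L-NCOR1ΔID livers 0 genes of these marker lists were called. At an adjusted p under 0.05 in limma, 1 endothelial marker was higher there and 1 lymphocyte and neutrophil marker was lower. The part of other cell types in the T3 results was not tested.

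For each member, the 2 genes with the nearest profile over the 12 libraries were sought among 10663 genes, by the root mean square difference of log2(RPKM + 0.1) after centring each gene. Nearest to Elovl3 were Gpd2, the mitochondrial glycerol-3-phosphate dehydrogenase, with a difference of 0.53, and Paqr9 with 0.568, beside a spread of 1.79 of Elovl3 around its own mean. Gpd2 had means of 4.25, 33.5 and 4.83 RPKM in hypothyroid WT, hyperthyroid WT and L-NCOR1ΔID livers. Nearest to Scd2 were the aldo-keto reductase Akr1b7 (0.486, with 0.13, 0.69 and 3.90 RPKM) and Plekhb2 (0.75), beside a spread of 1.47 of Scd2. For the other members the distances were 0.101 to 0.252, with Dpp7 and Tm7sf2 nearest to Elovl1, Gm4285 and Nxt1 to Elovl2, Gpi1 and Crybg3 to Elovl5, Snx15 and Sem1 to Fads1, Kif20a and Zbtb18 to Fads2, and Abca7 and Lmo4 to Fads3. Those members vary little themselves, with spreads of 0.24 to 0.466, so that closeness there says little.

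The study also mapped regions with acetylated histone H3 (H3K27Ac or H3K9Ac, marks of active promoters and enhancers) in hypothyroid and hyperthyroid WT livers, deposited as 1 list of 37200 positions on mm9 without a value per sample. A difference between conditions can therefore not be computed from it. The paper's supplement describes averaged counts and fold changes for acetylated domains. It also describes marks for their overlap with TR binding sites, HDAC3 and hyperacetylated regions, and the authors' own test results per gene. None of these were used here. The start sites of all 8 members lay inside such a region, as did 92.5% of 9519 genes with a mean of at least 1 RPKM and 56.1% of all 20074 genes with a position. Within 100 kb of their start sites the members had 6 to 14 regions, beside a median of 8 (quartiles 5 and 11) for genes of at least 1 RPKM.

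Elovl3 (chr19:46206387-46210184, plus strand) had 14 regions within 100 kb, and the one at its start site, chr19:46205152-46212255, covered the whole gene. Elovl1 (chr4:118100698-118105558) was likewise covered in full by 1 region of 7691 bases. Scd2 (chr19:44368166-44381354) had the fewest, 6, and only 12% of the gene was covered, by a region of 2516 bases at its start. Elovl5 (chr9:77765171-77832326) and Elovl2 (chr13:41277864-41315774, minus strand) had long regions at their start sites, of 15217 and 14797 bases, and 53.1% and 72.4% of each gene was covered.

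The 3 Fads genes are neighbours on chromosome 19 and share regions, so that the 86 regions counted over the members are 70 different ones. Fads3 (chr19:10116038-10134161, plus strand), Fads2 (chr19:10138654-10175993, minus strand) and Fads1 (chr19:10257378-10271360, plus strand) had 14, 13 and 12 regions. A single region of 20365 bases, chr19:10128145-10148509, held the 3' end of both Fads3 and Fads2, which face each other there. These neighbours differed widely in level: in hypothyroid WT livers Fads2 was at 183.1 and Fads3 at 1.39 RPKM, and with T3 Fads3 was called higher and Fads2 was not.

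**Figure D4:**
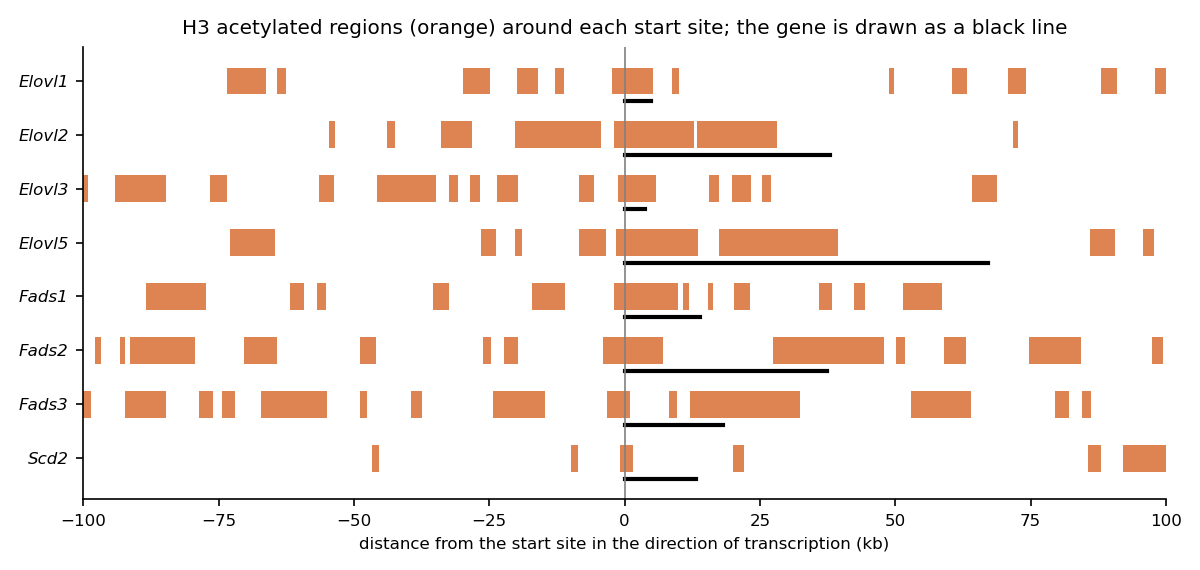
Deposited H3 acetylated regions (orange) within 100 kb of the start site of each member, by distance in the direction of transcription (kb, horizontal axis), with the gene as a black line below. A region lies over each start site; it covers all of Elovl1 and Elovl3 and 12% of Scd2. The list carries no value per condition.

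TR binds DNA with its partner RXR at pairs of AGGTCA half-sites, often arranged head to tail with 4 bases of any kind between them, an element called DR4. Both strands of the 70 regions near members were searched on mm9 for stretches that match at least 11 of the 12 half-site letters. Of these, 2 regions (2.86%) held one, beside 4.48% of all 37200 regions. They are shown with 20 bases on each side because they are the matches found near members. Capitals mark the 12 half-site positions, whether or not the letter there matches. The first matches all 12 letters and lies inside an intron of Fads2, at chr19:10146455-10146470, in the region shared with the end of Fads3. The second matches 11 letters and lies outside annotated genes, 72380 bases downstream of the Elovl1 start site, at chr4:118173071-118173086.
Fads2 intron, minus strand: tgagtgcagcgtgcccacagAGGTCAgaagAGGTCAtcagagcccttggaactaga
Elovl1 downstream, plus strand: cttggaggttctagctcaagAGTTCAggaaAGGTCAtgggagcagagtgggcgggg

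A match of all 12 letters was found in 0.274% of all regions and in 1.95% of the 256 regions within 10% of the length of the Fads2 region, since longer regions hold more. A match is a description of the letters and does not show that TR binds there. No match was found in the 14 regions around Elovl3 or the 6 around Scd2, which says only that these letters are not in these windows.

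Promoter sequence from RefSeq (GRCm38.p6, another build than the mm9 regions) was at hand for 5 members, Elovl1, Elovl2, Elovl5, Fads2 and Fads3. It was searched on both strands for the CCAAT box, the TATA box written as TATAAA, the core of a sterol regulatory element written as TCACNCCAC, the E-box written as CACGTG and the half-site AGGTCA, from 250 bases before to 50 bases after the start. Fads3 and Elovl5 are printed because both hold a pair of CCAAT boxes. The 250 bases before the start are given, with motifs in capitals (ATTGG is CCAAT on the other strand).
Fads3 promoter, chr19:10041298-10041547, plus strand: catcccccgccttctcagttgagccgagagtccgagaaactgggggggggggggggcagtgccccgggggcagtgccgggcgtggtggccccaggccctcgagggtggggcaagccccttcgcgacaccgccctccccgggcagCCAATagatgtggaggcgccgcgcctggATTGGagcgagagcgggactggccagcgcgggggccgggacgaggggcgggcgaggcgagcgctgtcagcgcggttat
Elovl5 promoter, chr9:77917115-77917364, plus strand: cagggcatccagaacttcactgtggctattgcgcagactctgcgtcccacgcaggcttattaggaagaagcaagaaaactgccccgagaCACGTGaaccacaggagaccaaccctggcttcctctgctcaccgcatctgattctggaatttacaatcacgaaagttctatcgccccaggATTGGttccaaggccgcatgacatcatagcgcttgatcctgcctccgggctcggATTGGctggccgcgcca

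At least 1 CCAAT occurs in 37.4% of 32851 promoters of this length, and CACGTG in 7.2%. The share of promoters with a pair of CCAAT boxes was not computed. A single CCAAT was also in 1 of the 2 Elovl1 windows. The Elovl5 promoter holds CACGTG 161 bases before the start. TATAAA and TCACNCCAC, which occur in 13.6% and 1.2% of promoters, were in none of the windows of these 5 members, and AGGTCA (16.3%) was in 1 of the 2 Elovl1 windows. Fads2 and Elovl2 held none of the 5 motifs, and G and C made up 67.0% of the Fads2 window and 76.7% or more of the Elovl2 windows.

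Neighbouring genes can share reads with a member, and whether the counting used strand is not stated. Exons of Elovl1 share 53 bases with Cdc20 and those of Elovl3 share 10 bases with Pitx3, both on the opposite strand, and Scd2 shares 61 bases with an unnamed transcript on its own strand. Fads2 and Fads3 have 5 stretches of 50 bases in common, at most 0.34% of either, and the other members apart from Scd2 share none with another gene's transcripts. As given above for Scd1 and Scd2, the paper used uniquely aligned reads.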

How the data were processed

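Liver poly(A) RNA from 12 mice was sequenced by the authors, with runs on 2 instrument models for each library, aligned to mm9 with STAR and quantified with HOMER (per the labels and the study's methods; versions are not given in the sources used here). RPKM values were deposited, scaled by the authors to transcript length and library reads; 0 columns of per-sample values were unused. Acetylated regions were called by the authors with HOMER, and the deposited coordinates carry no score. Other measurements of the series were not analysed here. Of 31370 transcripts, 1 without a gene name (at most 0.00079% of summed RPKM) was dropped.

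Genes reaching 0.1 RPKM in 4 or more of the libraries compared were kept. Values were transformed to log2(RPKM + 0.1) and fitted in R 4.3.3 with limma 3.58.1, allowing the variance to follow the mean level. P-values were adjusted over all genes kept (Benjamini-Hochberg), and an adjusted p under 0.01 was called. Fold changes on this scale understate changes of low genes. Only the 2 groups compared entered a fit. The scripts were tested on simulated data with known changes. Replicates were 4 independent mice per group. The members and lists were chosen with earlier results of these data known. Named genes were the members, Elovl6, Scd1, up to 4 genes per list with the smallest adjusted p in a comparison and 1 RPKM or more on average in whichever group was higher, and 2 nearest profiles per member. Ppara and Dio1 fall outside this rule and were chosen after their values were seen. Some genes of the lists are counted but not reported by name here. Positions come from GENCODE M1 (mm9), and all 37200 regions end inside its chromosomes. Python 3.11.15, numpy 2.4.6, pandas 2.3.3 and matplotlib 3.10.9 were used.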

Additional observations from a re-analysis of the deposited data

Results flagged for a closer look

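Scd2 in L-NCOR1ΔID replicate 2, at 26.0 RPKM, lay apart from the other 3 livers of its group (3.76 to 6.82 RPKM). Its gap to the nearest liver was 0.862 of the range of the group, above Dixon's limit of 0.829 for 4 samples. It was the 1 case among 24 groups of values tested, and chance gives such a case in about 1 of 20 groups. In the same liver Elovl3 was the lowest of the 12 (2.15 RPKM) and Scd1 the lowest of the mutant group (3745 RPKM).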

How the results depend on the processing

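Levels and most fold changes kept their direction and their side of the threshold under the alternatives: another pseudocount, no or a stricter filter, all 12 libraries in 1 fit, a replicate block, no variance trend, scaling, another transcript, and leaving out each library. The count of members called after T3 was 2 to 4 when 1 library was left out. For L-NCOR1ΔID the count of 0 became 1 in the 12-library fit (Scd2) and 2 at an adjusted p under 0.05, and was 0 to 1 without 1 library. For hyperthyroid WT against L-NCOR1ΔID the count of 1 became 2 with a mean of at least 1 RPKM, 3 in the 12-library fit and 3 at an adjusted p under 0.05, and was 0 to 1 without 1 library. Reversed values after scaling were Fads1 with T3 (-0.01), and Elovl2 (-0.09) and Fads1 (-0.13) in hyperthyroid WT against L-NCOR1ΔID. Without 1 library, Elovl3 in the mutant ranged from -0.15 to 0.99, and in hyperthyroid WT against L-NCOR1ΔID Elovl5 ranged from -0.20 to 0.21, Elovl2 from -0.01 to 0.24 and Fads1 from -0.11 to 0.20; the cause was not tested. The 86 regions within 100 kb were 48 within 50 kb and 158 within 200 kb, by construction of the window.

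Libraries with the same replicate number did not deviate together (correlations from -0.12 to 0.17), so the numbers were not taken as pairs. With the replicate block, 2 members were called after T3 (Fads3 lost, adjusted p 0.010), 0 in the mutant and 1 in the direct comparison, and genes called were 2718 higher and 888 lower, 20 and 25, and 1152 and 490, beside 3413 and 1075, 100 and 75, and 2176 and 799 without it. The 12-library fit called 139 and 118 genes in the mutant, an adjusted p under 0.05 gave 344 and 257, and leaving out 1 library gave 36 to 110 higher. In the direct comparison scaling gave 1052 higher and 1281 lower. Depth limits Scd2 and Fads3 most, whose lowest estimated numbers of reads in any library were 100 and 120.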
